A study of Mus musculus with 2 samples.

Results

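The Hox cluster genes were examined on the arrays of WT and G9a-KO mouse embryonic stem cells (ESCs). They were taken by name, as all genes whose single symbol in the probe annotation is Hox followed by a cluster letter (a to d) and a number. Of 39 such genes in the RefSeq gene table, 33 were measured, among 18194 named genes, by 48 of the 45101 probe sets. The others were not analysed here as single genes. WT ESCs, the TT2 line made by crossing C57BL/6 females with CBA males, were hybridized to 1 array. The other array holds G9a-KO ESCs, a TT2 line without exons 26 and 27 of G9a, a histone H3K9 methyltransferase encoded by *Ehmt2*. The treatment text is the same for both samples, with 800 nM 4-hydroxytamoxifen for 48 h to delete the conditional allele and 48 h more without it. No label says whether the WT line was in fact treated. The labels give a medium with knockout serum replacement, fetal calf serum and LIF for both, and name no feeder cells. In the study's methods the G9a-KO line is null for G9a and grew on inactivated mouse embryonic fibroblasts in serum and LIF. With 1 array per group, and 1 line per genotype, no difference below has a replicate check, and no p-value was computed. The arrays measure bulk RNA, so a change in the number of cells of a type and a change in the RNA of each cell cannot be told apart.

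HOX proteins are homeodomain transcription factors that give cells their position along the head-to-tail axis. Their genes lie in 4 clusters, and the order of the genes along a cluster follows the order in which they are switched on and the body level at which they act. Genes at the same place in different clusters are paralogues and share a number, low numbers acting in the hindbrain and neck and high numbers in the lumbar, sacral and tail regions. In ESCs the clusters are textbook targets of Polycomb repression, in which PRC2 places H3K27me3 and PRC1 binds it, and they are opened later by trithorax proteins, retinoic acid and CDX factors. HOX proteins bind DNA together with TALE homeodomain partners of the PBX and MEIS families.

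Most Hox genes were dim and differed little between the genotypes. Levels were log2 values from which the 75th percentile of the array had been subtracted, on which scale the median of all probe sets was -2.24 in WT and -2.13 in G9a-KO. The Hox probe sets ran from -4.90 to -0.43 in WT and from -4.78 to -0.22 in G9a-KO, so 0 of the 48 reached the 75th percentile on either array. Of the 48, 14 had a mean over both arrays above the median of all probe sets and 34 lay below it. In 19 of the 33 genes no probe set lay above, and their levels ran from -4.90 to -2.24. Dim array values carry much background signal, so the folds of such probe sets are not exact. *Ehmt2*, the targeted gene, was 2.90-fold lower in G9a-KO by its bright probe set (2.05 and 0.51), while its dim one (-2.27 and -2.07) differed by 0.20. Whether either lies in the deleted exons was not analysed here.

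**Figure D1:**
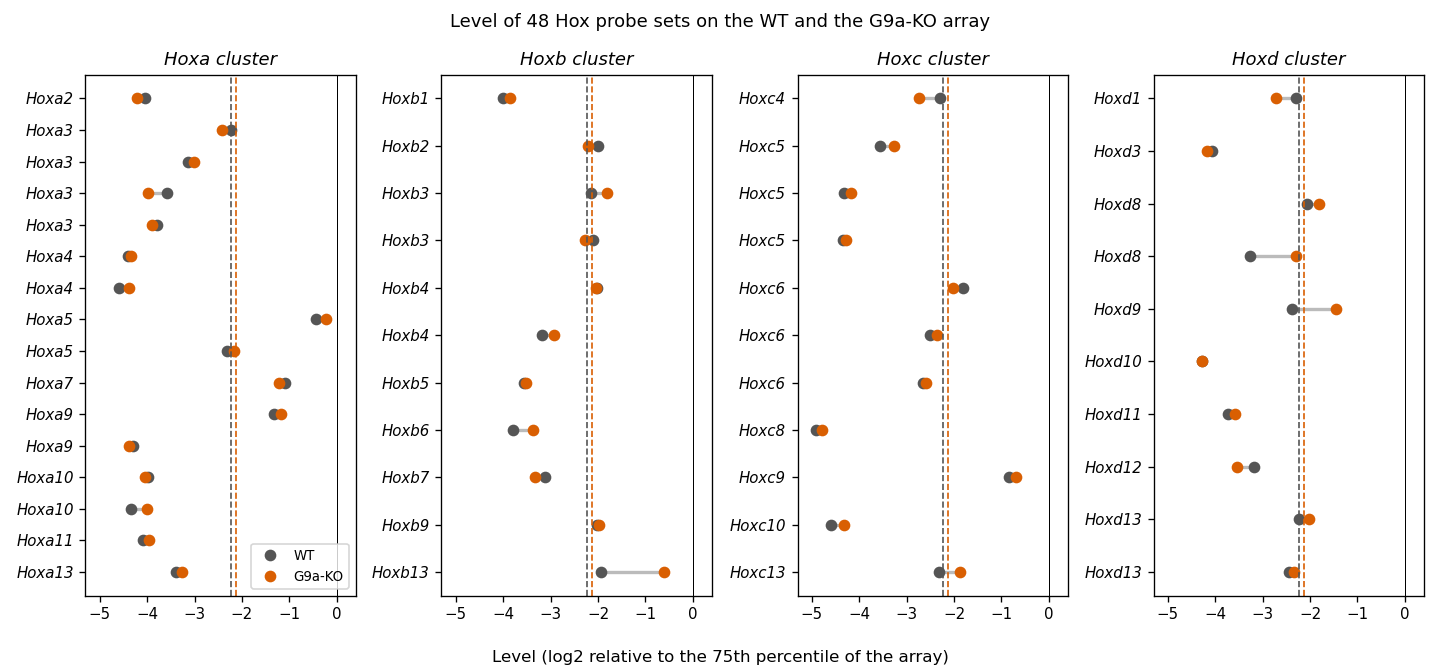
Level of each Hox probe set (horizontal axis, log2 after the 75th percentile is subtracted) in WT (grey) and in G9a-KO (orange), with 1 row per probe set, by cluster. Dashed lines mark the medians of all probe sets (-2.24 and -2.13) and the solid line the 75th percentile. Most points of a pair lie close together, and *Hoxb13*, *Hoxd8* and *Hoxd9* have the longest bars.

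At the 1.3-fold threshold of the study, by which a gene counts when at least 1 of its probe sets passes, 5 Hox genes (15.2%) were higher in G9a-KO and 3 (9.09%) were lower. The shares over all named genes were 24.6% and 22%. At 2-fold, 1 Hox gene was higher and 0 were lower, against 6.23% and 5.25% of all genes. This rule calls more genes where genes have more probe sets. The 33 Hox genes have 48 probe sets, with 1 each in 22 of them, and the 18194 named genes have 34958. By the mean over probe sets, 15.2% of Hox genes were over 1.3-fold higher and 6.06% lower, against 15.7% and 13.8% of all named genes. The 25 other Hox genes stayed within 1.3-fold by all of their 36 probe sets, which differed by -0.35 to 0.34 on the log2 scale. Dim probe sets differed less than bright ones over the whole array, so the 2 kinds were also read apart. Among the 14 Hox probe sets above the median, 3 were over 1.3-fold higher and 0 lower, against 21.4% and 20.8% of all probe sets above it. Of these 3, *Hoxc13* and *Hoxd9* lay below the median in WT and were counted here only through their G9a-KO values, so the count is a description. Of the 10 above it on both arrays, 1 (*Hoxb13*) was higher and 0 lower, against 20.3% and 20.2% of all such probe sets. Among the 34 below, 2 were higher and 3 lower, against 12.2% and 5.44%. The spread of the differences (robust SD) was 0.27 for the Hox probe sets above the median and 0.45 for all probe sets above it, and 0.23 and 0.24 below it. The 18 hybridization control probe sets differed by -0.16 to 0.21 (SD 0.11). Of the Hox probe sets, 26 (54.2%) lay inside that range, 12 above it and 10 below it, and 44.0% of all probe sets lay inside it. The lowest control level was -2.42, above most Hox levels, so the controls do not measure the spread of dim probe sets.

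**Figure D2:**
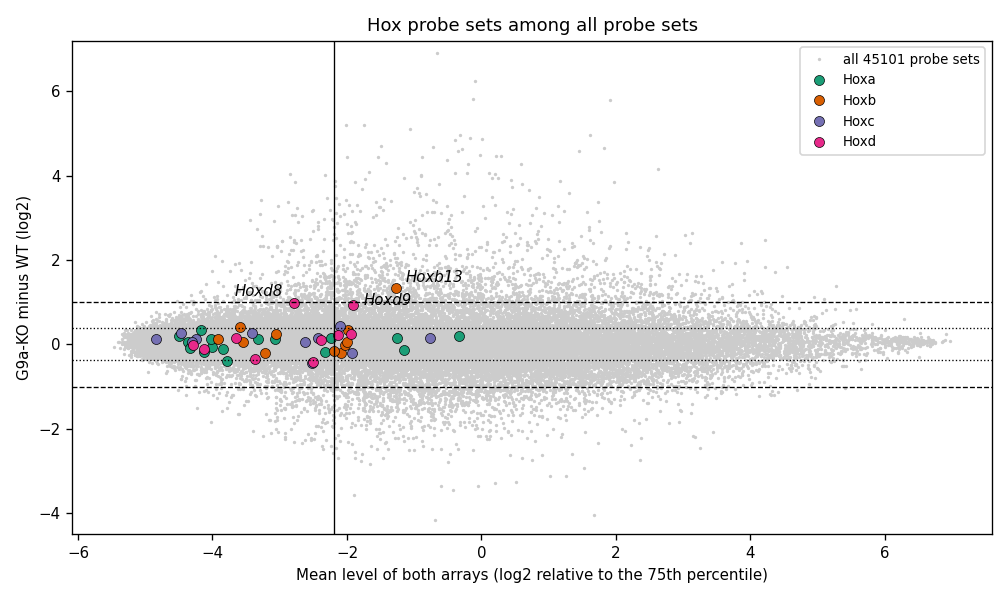
Vertical axis, G9a-KO minus WT (log2). Horizontal axis, mean level over the arrays (log2, relative to the 75th percentile). Points are all 45101 probe sets (grey) and the 48 of Hox genes, coloured by cluster. Dotted lines mark 1.3-fold, dashed lines 2-fold and the vertical line the median level. The Hox probe sets lie mostly left of the median level and between the dotted lines, with *Hoxb13* above the upper dashed line.

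*Hoxb13* had the highest difference. This gene stands alone at the posterior end of the Hoxb cluster on chromosome 11 and is known from the tail bud and the prostate. Its probe set lay at -1.94 in WT and -0.61 in G9a-KO, above the median on both arrays, and was 2.51-fold higher in G9a-KO (1.33 on the log2 scale). Of all probe sets, 2.13% had a larger positive difference. Its single probe set means that no second measurement of the transcript could be compared. Its neighbours on either side differed little. *Hoxb9*, the next Hox gene along the cluster, differed by 0.05 (-2.02 and -1.97). On the other side, *Ttll6*, the next protein-coding gene, differed by 0.08. Beyond it, the autophagy receptor gene *Calcoco2* was higher by 1.00 on the log2 scale, just under 2-fold (3.17 in WT and 4.16 in G9a-KO).

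*Hoxd8* and *Hoxd9*, which lie next to each other in the Hoxd cluster on chromosome 2, were also higher. Both act in the trunk. *Hoxd9* ran from -2.37 in WT, below the median, to -1.44 in G9a-KO, above it, which is 1.90-fold higher. *Hoxd8* had 2 probe sets that differed in size but not in direction. The brighter ran from -2.06 to -1.82, a difference of 0.24 within the threshold. The dimmer, of a kind that can bind several transcripts, ran from -3.27 to -2.29 and was 1.98-fold higher, below the median on both arrays. The call for *Hoxd8* thus rested on its dim probe set.

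The genes on either side of this pair differed less. *Hoxd10*, beside *Hoxd9*, differed by -0.0068 (-4.28 and -4.29), and *Hoxd11* by 0.14. *Hoxd3*, on the other side of *Hoxd8*, differed by -0.11. The 3' end of the cluster went the other way. *Hoxd1*, its most anterior gene, ran from -2.30 in WT to -2.72 in G9a-KO and was 1.34-fold lower, below the median on both arrays.

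The other calls were close to the threshold. *Hoxc13*, a posterior gene known from hair and nails, ran from -2.32 to -1.88 and was 1.36-fold higher. *Hoxb6*, which acts in the trunk, ran from -3.80 to -3.38 and was 1.34-fold higher, well below the median on both arrays. When each array was centred on its median instead, which lowers every difference by 0.10, these 2 genes stayed within the threshold and *Hoxd12* (-3.18 and -3.54) joined the lower genes. *Hoxc4*, the most anterior gene of its cluster, ran from -2.30 to -2.74 and was 1.36-fold lower. *Hoxa3*, needed for the thymus and parathyroid, was 1.32-fold lower by 1 dim probe set (-3.59 and -3.99). Its 3 other probe sets differed by -0.19, -0.10 and 0.13, so the genotype difference of this gene has no settled direction. No probe set of the 3 lower genes lay above the median.

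Besides *Hoxb13*, 4 genes lay furthest above the median by the mean of both arrays, and each differed by less than 1.3-fold. *Hoxa5*, which acts in the neck and the lung, lay at -0.43 in WT and -0.22 in G9a-KO by its brighter probe set (difference 0.21) and at -2.31 and -2.16 by the other (0.15). *Hoxc9*, a gene of the thoracic spinal cord, lay at -0.83 and -0.69 (0.15). *Hoxa7* lay at -1.09 and -1.22 (-0.12). *Hoxa9*, known from blood progenitors, lay at -1.33 and -1.18 by its bright probe set (0.15), but its other probe set was dim at -4.30 and -4.38 (-0.080). The brighter probe set of *Hoxa5* has the _x_at ending, another kind that can also bind several transcripts.

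The remaining genes with a probe set above the median lay close to it on both arrays. *Hoxb2* differed by -0.21 (-1.99 and -2.20), *Hoxb4* by -0.016 (-2.03 and -2.04) and *Hoxc6* by -0.20 (-1.82 and -2.02). *Hoxb3* differed by 0.34 (-2.15 and -1.81) and *Hoxd13* by 0.21 (-2.24 and -2.03). Other probe sets of these genes gave 0.25 for *Hoxb4*, -0.16 for *Hoxb3*, 0.11 for *Hoxd13* and 0.14 and 0.056 for *Hoxc6*. Thus *Hoxb3*, *Hoxb4* and *Hoxc6* had probe sets in both directions. The 11 genes not yet named, *Hoxa2*, *Hoxa4*, *Hoxa10*, *Hoxa11*, *Hoxa13*, *Hoxb1*, *Hoxb5*, *Hoxb7*, *Hoxc5*, *Hoxc8* and *Hoxc10*, lay below the median by all their probe sets, and their brightest ones differed by -0.21 (*Hoxb7*) to 0.28 (*Hoxc5*). Over the 11 Hox genes with several probe sets, 5 had all of them in 1 direction and 6 in both. Of the 48 probe sets, 4 held identical deposited values on both arrays, as did 5.20% of all probe sets, and the subtraction of the 75th percentiles sets these 0.056 apart.

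By cluster, the median differences were small, with 1 value per gene, that of its brightest probe set. They were 0.056 for the 9 Hoxa genes, 0.056 for the 9 Hoxb genes, 0.15 for the 7 Hoxc genes and 0.067 for the 8 Hoxd genes, beside 0.036 for all named genes. The Hoxa and Hoxb medians equal the offset that the subtraction of the array percentiles adds, and both were 0 in the deposited values. In the Hoxa cluster on chromosome 6, 0 of the 9 genes were higher and 1 was lower by at least 1 probe set. The Hoxb cluster had 2 higher and 0 lower, the Hoxc cluster on chromosome 15 had 1 of each, and the Hoxd cluster had 2 higher and 1 lower.

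By paralogue number, the median differences followed the order along the axis. The median was -0.18 for the 7 anterior genes (groups 1 to 3), 0.056 for the 12 central genes (groups 4 to 8) and 0.14 for the 14 posterior genes (groups 9 to 13). Of the posterior genes, 11 were higher by any size, 3 of them over 1.3-fold and 0 lower by that fold, and 2 of the 7 anterior genes were higher by any size. Over all named genes, 53.4% were higher by any size, and 17.4% were over 1.3-fold higher and 17.2% lower by the brightest probe set. The share higher by any size depended on level, at 61.5% of all probe sets below the median and 52.9% of those above it. All 4 genes of group 9 and all 4 of group 13 were higher, by 0.048 (*Hoxb9*) to 0.93 (*Hoxd9*) and by 0.12 (*Hoxa13*) to 1.33 (*Hoxb13*). Groups 8 and 11 were also higher in all their measured members, and groups 2 and 7 were lower in both of theirs. In group 5, *Hoxa5* and *Hoxc5* were higher. *Hoxb5* differed only by the 0.056 that the subtraction of the array percentiles adds, since its deposited values were identical on both arrays. The central median of 0.056 is this same offset and was 0 in the deposited values. The order did not hold for each group, since 2 of the 3 genes of group 10 were lower (median -0.0068), as was *Hoxd12*, the measured gene of group 12 (-0.35). Most of these values were smaller than 1.3-fold and came from dim probe sets. With the arrays centred on their medians, the medians were -0.28, -0.046 and 0.041, and 10 of the 14 posterior genes stayed higher, with 3 of 4 in group 9. On that scale, 7594 of the 18194 named genes were higher by any size. With only the probe sets above the median on at least 1 array, the order was lost, with medians of 0.068 for the anterior genes (from *Hoxb2* at -0.21 and *Hoxb3* at 0.34), -0.016 for the central genes and 0.21 for the posterior genes. *Hoxc13*, *Hoxd9* and *Hoxd13* passed this filter only through their G9a-KO values, and *Hoxb2* only through its WT value. The filter thus favoured higher values among the posterior genes, so these medians are a description.

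**Figure D3:**
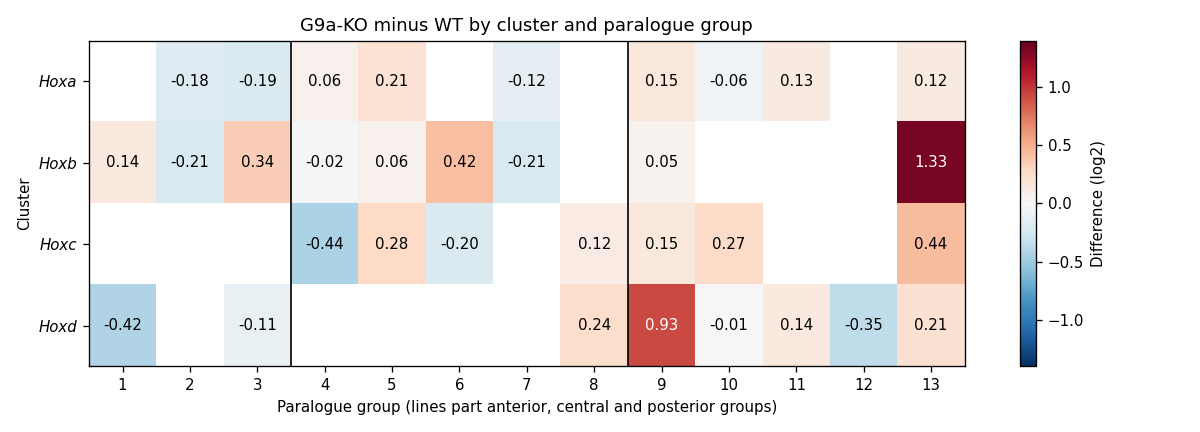
Difference between G9a-KO and WT (log2) by the brightest probe set of each Hox gene, with the cluster on the vertical axis and the paralogue group on the horizontal axis. Red is higher and blue lower in G9a-KO, and empty cells have no value. The darkest cells are *Hoxb13* (1.33) and *Hoxd9* (0.93), both right of the line that opens the posterior groups.

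The sequence around the start of these genes was read from the RefSeq promoter table (assembly GRCm38.p6), which holds 300 bases for each start, 250 before and 50 after it. It held 21 promoters of 19 of the 33 measured genes. The 4 below are those of the Hoxd genes described above, the higher pair, the neighbour that did not differ and the lower gene at the other end. Capitals mark CACGTG, the E-box bound by MAX, a transcription factor that shares the PCGF6-PRC1 complex with G9a.
*Hoxd8*, chr2:74704365-74704664, + strand: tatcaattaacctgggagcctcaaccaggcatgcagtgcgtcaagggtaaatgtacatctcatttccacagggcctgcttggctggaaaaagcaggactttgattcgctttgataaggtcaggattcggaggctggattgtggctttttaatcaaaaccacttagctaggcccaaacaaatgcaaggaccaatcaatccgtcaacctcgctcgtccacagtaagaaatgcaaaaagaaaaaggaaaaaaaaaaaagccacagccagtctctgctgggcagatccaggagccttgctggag
*Hoxd9*, chr2:74697513-74697812, + strand: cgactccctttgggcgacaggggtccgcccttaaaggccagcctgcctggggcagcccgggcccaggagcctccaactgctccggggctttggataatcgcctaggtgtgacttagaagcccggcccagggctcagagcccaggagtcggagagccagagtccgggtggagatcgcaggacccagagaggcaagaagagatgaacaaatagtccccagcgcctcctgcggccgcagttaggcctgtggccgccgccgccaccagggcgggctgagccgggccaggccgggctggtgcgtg
*Hoxd10*, chr2:74691641-74691940, + strand: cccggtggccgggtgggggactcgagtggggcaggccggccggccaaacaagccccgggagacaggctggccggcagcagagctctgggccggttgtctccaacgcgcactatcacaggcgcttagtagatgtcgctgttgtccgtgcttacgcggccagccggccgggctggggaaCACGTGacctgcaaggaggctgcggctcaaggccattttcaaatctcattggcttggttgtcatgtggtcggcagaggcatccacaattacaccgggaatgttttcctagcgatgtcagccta
*Hoxd1*, chr2:74762730-74763029, + strand: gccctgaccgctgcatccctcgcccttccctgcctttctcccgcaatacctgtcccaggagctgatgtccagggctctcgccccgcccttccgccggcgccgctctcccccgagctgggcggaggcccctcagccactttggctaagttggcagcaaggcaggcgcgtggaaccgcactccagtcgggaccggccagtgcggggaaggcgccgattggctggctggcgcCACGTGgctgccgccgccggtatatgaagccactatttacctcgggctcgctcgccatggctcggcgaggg
The promoters of the higher pair held no E-box, and those of *Hoxd10* and *Hoxd1* held 1 each. Over all 24 Hox promoters in the table, measured or not, 5 (20.8%) held CACGTG, against 7.15% of all 32851 promoters. All 5 were among the 10 Hoxd promoters (*Hoxd1*, *Hoxd4*, *Hoxd10*, *Hoxd13* and 1 of 2 for *Hoxd11*). The other 14 were mostly of Hoxa genes, with only *Hoxb1*, *Hoxb4*, *Hoxb8* and *Hoxc4* from the other clusters. Of the Hoxd genes not printed, *Hoxd11* (0.14) and *Hoxd13* (0.21) held the motif and were higher. *Hoxd3* (-0.11) and *Hoxd12* (-0.35) lacked it and were lower. The E2F-type motif GGCGGGA was in 3 (12.5%, against 11.3%), and TGATNNAT, bound by PBX with HOX, was in 4 (16.7%, against 8.85%). Both strands were searched, and 0 sites of different motifs overlapped. The median observed-to-expected CpG ratio was 0.626 against 0.384. Over the Hox promoters the ratio ran from 0.257 to 1.02. The printed promoters lay inside that range, at 0.367 (*Hoxd8*), 0.573 (*Hoxd9*), 0.754 (*Hoxd10*) and 0.805 (*Hoxd1*). These counts describe the letters of the windows and not binding.

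The DNA-binding partners of HOX proteins went both ways. Of 8 measured TALE cofactors, 2 were over 1.3-fold higher by the brightest probe set, 1 was lower and 5 were within the threshold, with a median of 0.034. The shares of all genes by that rule were 17.4% and 17.2%. *Meis1* ran from -3.07 in WT to -1.70 in G9a-KO and was 2.58-fold higher, and *Meis2* ran from -2.95 to -1.54 and was 2.66-fold higher. Both thus lay below the median in WT and above it in G9a-KO. Other probe sets gave -0.07 and 0.20 for *Meis1* and 1.05, 0.93 and -0.21 for *Meis2*. *Pbx3* was lower by -0.57 on the log2 scale (1.15 and 0.58).

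Upstream regulators of the clusters showed no common direction. *Cdx2* (-2.83 and -2.92) and *Cdx4* (-4.73 and -5.04) lay below the median on both arrays and within 1.3-fold, as did the ParaHox genes *Gsx1*, *Gsx2* and *Pdx1*. *Cdx1*, just above the median, differed by 0.056. The 18 retinoic acid genes had a median of -0.13, with 3 higher and 6 lower by the brightest probe set. By that rule 17.4% of all genes were higher and 17.2% lower. The retinoic acid-binding protein gene *Crabp2* ran from -0.41 to -2.34 and was 3.80-fold lower, and the receptor gene *Rarg* ran from 0.58 to -0.49 and was 2.11-fold lower (1.06-fold by its other probe set).

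Polycomb and trithorax genes, whose products close and open the clusters, also went both ways. The counts here are again by the brightest probe set, by which 17.4% of all genes were higher and 17.2% lower. Of 13 PRC2 genes, 1 was higher and 2 were lower, with a median of -0.23. The core subunit genes *Ezh2* (3.68 and 3.64, difference -0.042), *Eed* (4.51 and 4.17, -0.35) and *Suz12* (4.79 and 4.53, -0.26) were within the threshold. The lower genes were *Epop* (-0.90) and *Jarid2* (-0.65), accessory subunits, and the higher was *Lcor* (0.61). By at least 1 probe set, 4 PRC2 genes were higher and 5 lower, against 24.6% and 22% of all genes. Among them, *Ezh1* differed by 0.12 by its brightest probe set and by 0.75, 0.56 and 0.52 by the others. The 15 PRC1 subunit genes, of canonical and variant complexes, had a median of -0.12, with 2 higher and 4 lower. *Bmi1*, of canonical PRC1, was 1.72-fold higher (0.26 and 1.04). *Pcgf5*, of a variant complex, was 2.57-fold higher (1.67 and 3.04, and 0.58 and 0.18 by other probe sets), *Phc1* (-0.80) and *Cbx2* (-0.80, and 0.22 by its other probe set) were lower, and the catalytic subunit gene *Rnf2* differed by 0.024. Of 12 trithorax and H3K27 demethylase genes, 0 were higher and 1, *Kdm6a* (-0.46), was lower, though its probe sets ran from -0.53 to 1.28. *Kmt2a* differed by 0.034 (-0.48 by its other probe set).

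Of the 88 measured protein-coding genes within 12 places of a cluster end, 21 were higher and 16 lower by the brightest probe set, beside 17.4% and 17.2% of all genes. Some of the farther ones differed by over 2-fold. Examples of higher genes are *Gtsf1* beyond the Hoxc cluster (0.05 and 3.90, 14.5-fold) and *B4galnt2* beyond the Hoxb cluster (-2.39 and 0.76, 8.87-fold). Examples of lower genes are *Fkbp14* beyond the Hoxa cluster (-0.42 and -2.16, 3.32-fold) and *Ttc30b* beyond the Hoxd cluster (-1.30 and -2.78, 2.78-fold). A chosen list of 36 nearby genes had a median difference of 0.046, with 9 higher and 7 lower, and 29 of them lay above the median level. *Hibadh*, a mitochondrial enzyme gene beyond *Evx1* at the *Hoxa13* end, was higher by 1.00 on the log2 scale (2.58 and 3.57), while *Evx1* differed by 0.035 and *Hoxa13* by 0.12. *Igf2bp1* near the Hoxb cluster was 1.90-fold lower. Beside the Hoxd cluster, *Evx2* differed by -0.10 and *Lnpk* was 1.37-fold higher. The 4 measured noncoding transcripts of the clusters, *Hoxa11os*, *Hoxb5os*, *Hoxd3os1* and *Evx1os*, were all below the median and differed by -0.088 to 0.32.

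Homeobox genes outside the clusters were compared as the nearest kin. Of 72 measured, 11 (15.3%) were higher and 8 (11.1%) lower by the brightest probe set. By the same rule 4 of the 33 Hox genes (12.1%) were higher and 2 (6.06%) lower, and 17.4% and 17.2% of all genes. These shares were not tested against each other. The medians were 0.038 and 0.12. *Hesx1* (-0.62 and 0.99, 3.06-fold), *Irx2* (-1.80 and -0.60, 2.29-fold) and *Irx3* (-0.20 and 0.94, 2.20-fold) were higher, and *Gbx2*, which marks the boundary of midbrain and hindbrain, was 4.43-fold lower (0.36 and -1.79).

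Markers of some other cell types differed between the genotypes. They were counted by the brightest probe set, by which 17.4% of all genes were over 1.3-fold higher and 17.2% lower. All 10 ESC markers were above the median on both arrays, with 1 higher and 3 lower (*Zfp42* 1.73-fold, *Utf1* 1.53-fold and *Pou5f1* 1.37-fold) and a median of -0.24. Their levels, summed on the linear scale in units of the 75th percentile, came to 263 in WT and 259 in G9a-KO, and to 200 and 163 without *Dppa5a*, the higher one. All 15 primitive endoderm markers were over 1.3-fold higher, by 0.82 to 5.82, and their summed level ran from 5.18 in WT to 80.4 in G9a-KO. Of 9 mesoderm markers, 3 were higher and 0 lower (3.34 and 4.29). Of 6 neural markers, 0 were higher and 4 lower (3.39 and 1.34). Embryonic fibroblasts, the feeder cells of the methods, express many Hox genes. Of 16 fibroblast markers, 4 were higher, *Col6a3* (2.58-fold), *Lum* (1.98-fold), *Col1a2* (1.78-fold) and *Twist1* (1.39-fold), and 1, *Fap* (1.34-fold), was lower. Their summed level was 17.3 in WT and 17.6 in G9a-KO, most of it from *Vim*, which ESCs also express, and 2.55 and 3.28 without it. Over all 16, the median difference was 0.11, and 10 lay below the median level by the mean of both arrays. The part of these cell types in the Hox values was not tested.

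**Figure D4:**
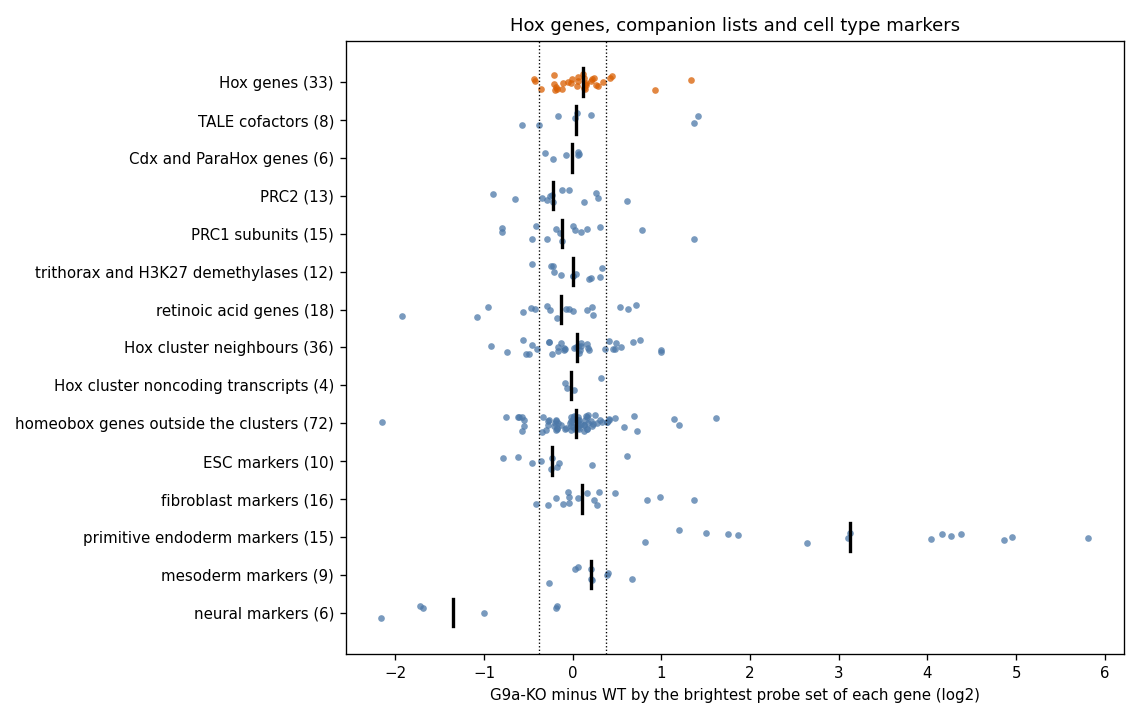
Difference between G9a-KO and WT (log2, horizontal axis) by the brightest probe set of each gene, 1 point per gene, for the 33 Hox genes (orange) and the companion and marker lists (blue), with the number measured in brackets. Bars mark list medians and dotted lines 1.3-fold. The Hox genes lie around their median of 0.12, with *Hoxd9* and *Hoxb13* to the right, whereas all primitive endoderm markers lie right of the dotted lines.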

How the data were processed

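The deposited values are log2 signals that the authors made with RMA in R 3.2.1 (per the labels) from Affymetrix mouse genome arrays hybridized with biotinylated cRNA from 200 ng of total RNA. RMA brings the arrays to a common distribution, so a difference in total RNA per cell cannot be seen. The depth of an array is its signal over background, and detection calls were not used here. Following the methods of the study, the 75th percentile of each array was subtracted, WT was then subtracted from G9a-KO for every probe set, and a gene passed 1.3-fold or 2-fold when at least 1 probe set did. Gene lists and medians used the probe set with the highest mean. Gene symbols came from the GEO annotation of the platform (34958 with 1 symbol, of which 34754 matched RefSeq of GRCm38.p6 by gene ID; 932 with several and 9211 unnamed were left out of gene results). "Above the median" means that the mean of both arrays lies above the mean of both array medians.

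Hox genes with a probe set above the median or past 1.3-fold were named. Of each companion list, members past 2-fold above the median (at most 6) and fixed regulators were named. *Meis2*, other genes within lists, flanking genes and the printed promoters were chosen after their values were seen. The members and lists were chosen with earlier results of these data known. Alternatives were no shift, median centring, quantile normalization, lowess (span 0.3), leaving out _s_at and _x_at probe sets, leaving out dim probe sets, and other rules for several probe sets. Computations used Python 3.11.15 with pandas 2.3.3, numpy 2.4.6 and statsmodels 0.14.6, and the counting steps were tested on simulated data.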

Additional observations from a re-analysis of the deposited data

How the results depend on the processing

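*Hoxb13* passed 2-fold under each alternative tried (1.23 to 1.33 on the log2 scale), and *Hoxd9* stood at 0.82 to 0.93. Each has 1 probe set, so the settings that leave out or combine probe sets could not change these values. No shift and median centring lower every difference by 0.056 and 0.10, too little to bring *Hoxb13* under 2-fold. Only quantile normalization (1.27 for *Hoxb13*) and lowess correction (1.29) were not fixed in advance in this way. The count of Hox genes over 1.3-fold higher fell from 5 to 3 with median centring, quantile normalization, lowess correction, or only probe sets above the median on at least 1 array. The first 3 kept *Hoxb13*, *Hoxd8* and *Hoxd9*, and the last called *Hoxb13*, *Hoxc13* and *Hoxd9*, the latter pair being above the median in G9a-KO alone, so that their passing supports nothing. Without dim probe sets the count of lower genes fell from 3 to 0, the Hoxd median moved from 0.067 to 0.24, the anterior median from -0.18 to 0.068 and that of retinoic acid genes from -0.13 to -0.34. That setting removes the dim probe sets on which the lost calls rested. In the Hoxd cluster it keeps *Hoxd8*, *Hoxd9* and *Hoxd13*, and *Hoxd9* and *Hoxd13* pass only through their G9a-KO values. The rise of the Hoxd median therefore cannot be read as a result. Without _s_at and _x_at probe sets the PRC2 median was -0.083, and *Hoxd8* no longer passed. With the mean over probe sets, the medians were -0.13 for TALE cofactors, -0.042 for PRC2 and 0.014 for PRC1 subunits, and *Hoxd8* stood at 0.62. The cause of the other shifts was not tested. In all, 155 values of counts and medians under an alternative, against 12 that did not, kept their size within the control SD (0.11) or 1.5 times the count. For medians this was fixed in advance under no shift and median centring. These move every difference by 0.056 and 0.10, both less than that SD. The controls also do not measure the spread of dim probe sets, so the tally is no check of the medians. No paired analysis was possible because there is 1 array per group, and for the same reason no replicate could be left out. Signal over background limits all values below the median.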

Other observations

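Probe sets that carry the symbols of 2 Hox genes were left out of the gene results. That for *Hoxb8* and *Hoxb7* lay at -4.09 in WT and -4.04 in G9a-KO (difference 0.056). Those for *Hoxd4* and *Hoxd3* lay at -1.46 and -1.63 (-0.17), above the median, and at -3.44 and -3.30 (0.14), below it.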
